A study of Mus musculus with 50 samples.

Results

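The transcripts described here belong to 10 genes of muscle cell identity, read in the gastrocnemius muscle of ageing mice. They were taken by symbol: the myogenic regulatory factors Myod1, Myf5, Myog and Myf6, the satellite cell genes Pax7, Cdh15, Calcr and Chrdl2, and the Notch receptor Notch3 with its target Heyl. All 10 were present among the 23880 genes of the deposited tables, and 8 of them were among the 12586 genes that reached a level of 1 CPM (counts scaled to the size of the library) in 8 mice or more. Calcr and Chrdl2 stayed below that level and are given as values, with a fit that kept all genes beside them.

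Messenger RNA had been sequenced from 50 wild type male C57BL/6JRj mice, 1 library per mouse, with 8 mice at 8, 18, 22 and 24 months of age and 9 mice at 26 and 28 months. No group carried an engineered allele. All mice were caged singly and fed the AIN93M diet, and by the study's methods the mice of 22 months and older had all started it late in life, which those of 8 months had not, so that age and the course of the diet cannot be told apart between these ages. Sick mice and mice with tumours had been left out, so each age holds survivors. Libraries held between 13607229 and 21267375 counts, and genes of skeletal muscle were abundant, with a summed level of Acta1, Ckm, Myh4, Tnnt3, Mb, Des, Ttn and Mylpf of at least 95203 CPM at 8 and 28 months.

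Skeletal muscle fibres are long multinucleate cells, and satellite cells are the stem cells that lie beneath the basal lamina of each fibre. Pax7 marks the quiescent satellite cell. Once activated, these cells express Myf5 and Myod1, divide, and then switch on Myog, the factor that starts terminal differentiation, while Myf6 is the myogenic factor that mature fibre nuclei keep making. Notch signalling holds satellite cells in quiescence, and the same pathway, through Notch3 and Heyl, is used by the mural cells around small vessels. The factors Myod1, Myf5, Myog and Myf6 are basic helix-loop-helix proteins that bind the E-box, whose letters are CANNTG on both strands since the motif is its own reverse complement.

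Promoters from 250 bases before to 50 bases after the start site were found in RefSeq on GRCm38.p6 for 6 of the 10 genes, namely Myog, Myf5, Pax7, Cdh15, Calcr and Notch3. These 3 are printed 5′ to 3′ on the gene's own strand, with E-boxes in capitals: those of Myog and Cdh15, the genes that rose with age and have an entry, and that of Myf5, a myogenic factor of the same family without a match in this window. Myog lies at chr1:134289754-134290053 on the plus strand, Cdh15 at chr8:122848124-122848423 on the plus strand and Myf5 at chr10:107486085-107486384 on the minus strand.
Myog: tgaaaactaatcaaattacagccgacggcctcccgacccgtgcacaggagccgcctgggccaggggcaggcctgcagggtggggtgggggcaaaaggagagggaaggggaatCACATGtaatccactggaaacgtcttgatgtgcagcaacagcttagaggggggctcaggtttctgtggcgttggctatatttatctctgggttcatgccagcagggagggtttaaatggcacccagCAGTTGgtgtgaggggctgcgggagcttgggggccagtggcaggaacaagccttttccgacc
Cdh15: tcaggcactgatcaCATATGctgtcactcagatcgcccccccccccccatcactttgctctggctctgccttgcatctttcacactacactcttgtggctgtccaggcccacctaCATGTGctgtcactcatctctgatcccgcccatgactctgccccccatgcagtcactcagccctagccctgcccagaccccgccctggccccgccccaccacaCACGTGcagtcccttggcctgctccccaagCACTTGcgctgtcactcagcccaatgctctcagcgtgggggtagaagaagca
Myf5: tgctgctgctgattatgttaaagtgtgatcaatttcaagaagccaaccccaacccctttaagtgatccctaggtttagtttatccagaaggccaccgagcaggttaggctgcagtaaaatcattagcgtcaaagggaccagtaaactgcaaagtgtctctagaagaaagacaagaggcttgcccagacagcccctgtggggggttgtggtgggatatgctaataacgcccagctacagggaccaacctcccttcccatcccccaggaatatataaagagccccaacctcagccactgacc
The Myog window held 2 E-boxes, starting 138 and 12 bases before the start site, and the Cdh15 window held 4, the nearest of them starting 2 bases before it. Among the 6 genes 3 had at least 1 E-box, Calcr being 1 of them through the upstream one of its 2 promoters. An E-box is a short motif that 72.3% of the 32851 promoters of this length held, with a median of 1 per promoter, so a match here is a description of the sequence only.

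The levels of the 10 genes lay far apart. On the TPM scale, which corrects for transcript length, the mean over the 50 mice was 187 for Myf6, 11.3 for Cdh15, 10.2 for Myod1, 7.39 for Notch3 and 6.53 for Myog. Heyl stood at 3.65 TPM, Myf5 at 0.804, Chrdl2 at 0.774, Pax7 at 0.426 and Calcr at 0.153. The mean TPM of Myf6 was therefore 18.4 times that of Myod1, 28.7 times that of Myog and 233 times that of Myf5, its neighbour on chromosome 10. Myf6 (107492853 to 107494737, minus strand, GRCm38) and Myf5 (107482908 to 107486134, minus strand) lie 6718 bases apart there. Pax7 was read by 6 to 42 counts per mouse and Calcr by 0 to 15, so these genes rest on few counts, whereas Cdh15 was read by 232 to 635. In bulk muscle, fewer satellite cells and less RNA per cell cannot be told apart.

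**Figure D1:**
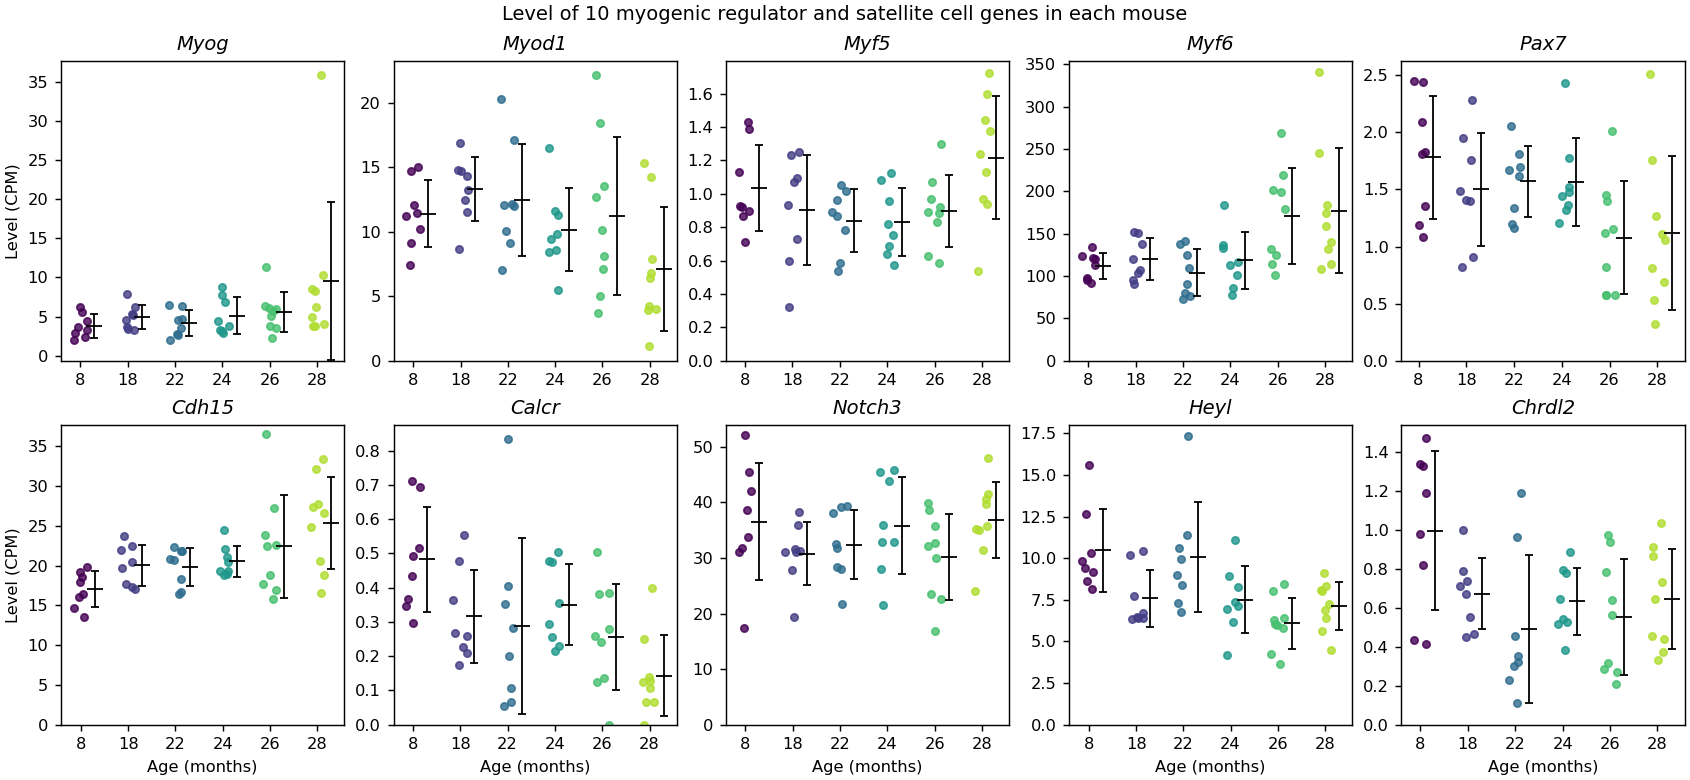
Level of each gene in CPM (vertical axis, from or below 0) in the mice of each age in months (horizontal axis); each point is 1 mouse, and the black bar and whiskers beside the points are the mean and SD of 8 or 9 mice. Cdh15 drifts upward from 17.0 to 25.3 CPM, Calcr downward from 0.483 to 0.142 CPM, and the highest Myog value, 35.9 CPM, is a single mouse of 28 months.

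Between 28 and 8 months 4 of the 8 genes tested changed at a false discovery rate (FDR) below 0.01, against 39.6% of all genes tested. Myog, Myf6 and Cdh15 rose and Heyl fell. The median log2 fold change of the 8 genes was 0.12, beside 0.0072 over all genes tested. Without replicate 1 of 28 months only Cdh15 of these 4 passed, and this mouse had the highest level among its age for 5 of the 10 genes, namely Myog, Myf5, Myf6, Cdh15 and Chrdl2. Its library had the lowest TMM scaling factor of the 50, 0.888, and the part of this in its levels was not tested. In a test for any difference among the 6 ages the same 4 genes passed, where 35.4% of all genes did, and 2 passed without replicate 1 or without replicate 5 of 28 months.

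Before 26 months no gene of the 8 was called against 8 months. At 18 months the count was 0 against a background of 0.0715%, and Heyl alone had an unadjusted p under 0.05 in edgeR; DESeq2 also called 0. At 22 months it was 0 against 0.0397%, with no unadjusted p under 0.05 and 0 by DESeq2. At 24 months it was 0 against 0.612%, with 2 genes, Cdh15 and Heyl, at an unadjusted p under 0.05 and 0 by DESeq2. At 26 months edgeR called 1, Heyl, against 18.4% of all genes, and DESeq2 called 3, where it called 2650 of all 12586 genes. These backgrounds show that few of all genes were called before 26 months either.

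**Figure D2:**
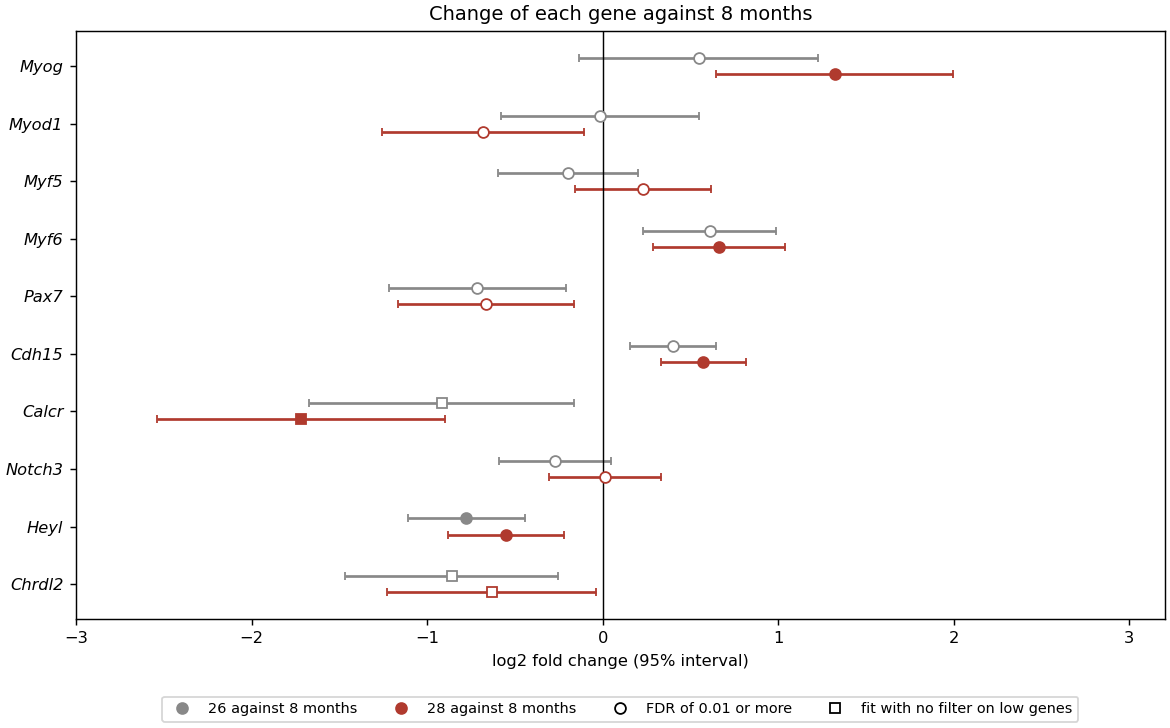
Log2 fold change of each gene against 8 months (horizontal axis) with its 95% interval, at 26 months in grey and 28 months in red; filled symbols have an FDR below 0.01, and squares are the 2 low genes from the fit without a filter. At 28 months Myog, Myf6 and Cdh15 lie to the right of 0 and Calcr and Heyl to the left with filled symbols, while Myod1 and Pax7 lie to the left with open ones.

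Among the myogenic factors, Myog (chromosome 1, 134289989 to 134292548, plus strand) encodes myogenin. At 8 months its level ran from 2.02 through a median of 3.44 to 6.19 CPM, and at 28 months from 3.82 through 6.19 to 35.9 CPM. All 9 of the oldest mice lay above the mean of the youngest and 4 of them above every 8 month mouse, with the rest inside that range. Its log2 fold change was 1.32 ± 0.34 (SE, n = 8 and 9), with an FDR of 0.0013. The value fell to 0.72 with an FDR of 0.0297 when replicate 1 of 28 months was left out, and its FDR was 0.0163 when only these 2 ages entered the fit. Against 22 months, whose mice had started the diet at a like age, Myog stood 1.19 ± 0.34 higher on the log2 scale (edgeR, FDR 0.00474).

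Myf6, also called Mrf4, ran from 92.2 through a median of 117 to 135 CPM at 8 months. At 26 months it ran from 101 through 179 to 269 CPM, and at 28 months from 108 through 160 to 341 CPM. At both ages the lowest mice lay inside the young range, while 5 of 9 mice at 26 months and 6 of 9 at 28 months were above all 8 month mice. The log2 fold change at 28 months was 0.66 ± 0.19 (SE) with an FDR of 0.00365, and at 26 months it was 0.61 ± 0.19 with an FDR of 0.0129. The 28 month value was 0.48 with an FDR of 0.0228 without replicate 1 and 0.59 with an FDR of 0.011 without replicate 5. The coefficient of variation of Myf6 was 13.7% at 8 months and 41.7% at 28 months.

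Myod1 (chromosome 7, 46376474 to 46379099, plus strand), the factor of activated myoblasts, had the opposite sign without passing the threshold against 8 months. It ran from 7.41 through a median of 11.3 to 15.004 CPM at 8 months, from 8.68 through 13.8 to 16.9 CPM at 18 months and from 1.13 through 6.45 to 15.3 CPM at 28 months. Of the 28 month mice 6 were below every 8 month mouse, while replicates 3 and 9 were at 15.3 and 14.3 CPM. The log2 difference from 8 months was -0.68 ± 0.29 (SE, FDR 0.0466), and that from 18 months was -0.91 ± 0.29 (FDR 0.00914). Myod1 was the only gene of the 8 called between 28 and 18 months, where 35.6% of all genes were. Leaving out replicate 3 of 28 months brought the difference from 8 months to -0.91 with an FDR of 0.00767.

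Myf5 (encoding the earliest of the family to appear in the embryo) was near 1 CPM in all ages. It ran from 0.713 through 0.924 to 1.43 CPM at 8 months and from 0.537 through 1.24 to 1.72 CPM at 28 months. Of the 28 month mice 3 lay above and 1 below all 8 month mice, with the rest inside their range, and the log2 difference of 0.23 ± 0.20 (SE) had an FDR of 0.331, with a 95% interval from -0.16 to 0.62. Myf5 is read by 5 to 29 counts per mouse, and a change of a size within this interval is not excluded. At 28 months it stood 0.42 above 18 months (FDR 0.0832) and 0.52 above 22 months (FDR 0.0341) on the log2 scale. It stood 0.53 above 24 months (FDR 0.0482) and 0.43 above 26 months (FDR 0.371), and none of these passed.

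Among the satellite cell genes, Cdh15 (chromosome 8, 122847966 to 122867397, plus strand), which encodes M-cadherin, the adhesion protein between satellite cell and fibre, kept its call with each mouse left out in turn. It ran from 13.6 through a median of 17.2 to 19.8 CPM at 8 months and from 16.6 through 26.6 to 33.4 CPM at 28 months. Of the oldest mice 7 of 9 stood above all of the youngest, and replicates 3 and 4 overlapped with them. The log2 fold change was 0.57 ± 0.12 (SE, FDR 0.000179), and without single mice of the 2 ages it stayed between 0.51 and 0.63. At 26 months the difference was 0.40 ± 0.12 with an FDR of 0.0119.

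Pax7 (chromosome 4, 139737062 to 139833528, minus strand), the paired-box factor that defines satellite cells, was detected in all 50 mice. It ran from 1.08 through a median of 1.82 to 2.45 CPM at 8 months, from 0.575 through 1.12 to 2.01 CPM at 26 months and from 0.322 through 1.05 to 2.51 CPM at 28 months. At 28 months 5 of 9 mice were below all 8 month mice, and replicate 3 was above all of them. The log2 difference was -0.67 ± 0.26 (SE, FDR 0.0262) at 28 months and -0.71 ± 0.26 (FDR 0.0283) at 26 months, neither past the threshold. Without replicate 3 of 28 months the first was -0.91 with an FDR of 0.00203.

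Calcr (chromosome 6, 3685680 to 3764714, minus strand) encodes the calcitonin receptor, a marker of quiescent satellite cells. Its counts summed to 72 over the 8 mice of 8 months and to 20 over the 9 mice of 28 months. In CPM it ran from 0.298 through 0.463 to 0.713 at 8 months and from 0 through 0.125 to 0.400 at 28 months. All but 1 of the oldest mice lay below all of the youngest, the exception being replicate 9. Calcr had a count of 0 in replicate 1 of 26 months and in replicate 8 of 28 months, which allows up to 0.172 and 0.186 CPM by counting error alone. In an edgeR fit that kept every gene with a count, added after its low level was seen, the log2 difference was -1.72 ± 0.42 (SE, FDR 0.00104), where 21.6% of the 22116 genes of that fit were called. DESeq2 without a filter gave -1.77 with an FDR of 0.000587, and leaving out each mouse of the 2 ages in turn gave -2.07 to -1.57. The edgeR fit without a filter did not call Calcr in the test for any age (FDR 0.0267). Nor was it called between 26 and 8 months (-0.92 ± 0.38, FDR 0.0881) or between 28 and 22 months (-0.98 ± 0.45, FDR 0.115).

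Chrdl2 (chromosome 7, 100006172 to 100034728, plus strand) encodes a chordin-like secreted protein. It ran from 0.417 through a median of 1.09 to 1.47 CPM at 8 months and from 0.333 through 0.645 to 1.03 CPM at 28 months. The mean was highest at 8 months and lowest at 22 months, with 0.492 CPM, but ranges overlapped at every age. In the fit without a filter the log2 difference at 28 months was -0.63 ± 0.30 (SE, FDR 0.111), and that at 22 months was -1.03 ± 0.32 (FDR 0.25). Neither passed.

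Of the Notch pair, Heyl (chromosome 4, 123233556 to 123249875, plus strand), a transcriptional repressor induced by Notch, was lower in the oldest mice. It ran from 8.16 through a median of 9.62 to 15.6 CPM at 8 months, from 3.64 through 6.06 to 8.43 CPM at 26 months and from 4.51 through 7.27 to 9.09 CPM at 28 months. At 26 months 8 of 9 mice and at 28 months 7 of 9 were below all 8 month mice. The log2 fold change was -0.78 ± 0.17 (SE, FDR 0.000683) at 26 months and -0.55 ± 0.17 (FDR 0.00543) at 28 months. The second lost its call when replicate 4 or 8 of 8 months or replicate 1, 2 or 6 of 28 months was left out, with values from -0.54 to -0.45, and in limma, where it was -0.43 with an FDR of 0.0173 on log2(TPM + 1) and -0.53 with an FDR of 0.0191 on log2(TPM + 0.1). Its level did not follow age in order, since mice of 18 months averaged 7.59 CPM and those of 22 months 10.1 CPM. Heyl was also the only gene called between 26 and 22 months, at -0.73 ± 0.17 (FDR 0.00618), where 2.65% of all genes were. Replicate 5 of 22 months is part of this comparison too.

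Notch3 (chromosome 17, 32120820 to 32166852, minus strand), the receptor, ran from 17.5 through a median of 36.2 to 52.1 CPM at 8 months and from 24.1 through 35.8 to 48.1 CPM at 28 months. All 28 month mice lay inside the 8 month range. The log2 difference was 0.01 ± 0.16 (SE, FDR 0.956), with a 95% interval from -0.31 to 0.33, and its sign changed with the scaling (-0.037 with upper-quartile factors). At 26 months it was -0.27 ± 0.16 with an FDR of 0.19.

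The remaining pairs of ages added few calls. Between 28 and 22 months 2 genes rose, Myog and Myf6, where 27.7% of all genes were called, and Myf6 stood 0.77 ± 0.19 higher (FDR 0.00154). That count was 5 without replicate 3 of 28 months, 1 without replicate 1 of 28 months or replicate 3, 4 or 7 of 22 months, and 0 when only these 2 ages entered the fit. No gene was called between 28 and 24 months (background 10.9%; 4 unadjusted), 26 and 18 months (10.1%; 1 unadjusted) or 24 and 18 months (0.111%; 0 unadjusted) by edgeR. None was called between 22 and 18 months (0.00795%; 1 unadjusted), 24 and 22 months (0%; 1 unadjusted), 26 and 24 months (0%; 2 unadjusted) or 28 and 26 months (0%; 3 unadjusted) by edgeR, and DESeq2 called 0 in these 4 too. When the ages were put in order of their mean level, no neighbours in the order of any of the 8 genes differed at an FDR of 0.01, the lowest being 0.0418 for Myf6 between 18 and 26 months.

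Within the oldest group the genes did not vary alike. Replicate 3 of 28 months held the highest Myod1, Pax7 and Heyl and the lowest Myf6 and Cdh15 of its age, and replicate 2 held the lowest of Myod1, Myf5, Pax7, Notch3 and Heyl. Correlations between mice of the same age were computed for all 45 pairs on log2(CPM + 1), after each age was centred on its mean (n = 50; two-sided permutation tests within ages, adjusted over the 45 pairs). By Pearson's r 16 pairs passed an adjusted p of 0.05, by Spearman's rho 15, and by both 13, and of the 16 pairs 9 were positive. The values share the library and its scaling factor.

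The 3 pairs with the largest absolute Pearson's r were Myog with Myf6, Notch3 with Heyl and Pax7 with Notch3. For Myog and Myf6 r was 0.684 and rho 0.625 (permutation p = 3e-05 for both, adjusted 0.00045), and r was 0.592 without the 2 mice farthest from the median of Myog. For Notch3 and Heyl r was 0.624 and rho 0.606 (permutation p = 1e-05 for both, the smallest that 100000 permutations can give, adjusted 0.00045 and 0.000225), and 0.619 without the 2 farthest mice. For Pax7 and Notch3 r was 0.539 and rho 0.519 (permutation p = 9e-05 and 0.00036, adjusted 0.00101 and 0.0027), and 0.517 without the 2 farthest. In all 3 pairs r was positive at each of the 6 ages, from 0.144 for Pax7 and Notch3 at 24 months to 0.89 for Notch3 and Heyl at 26 months.

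**Figure D3:**
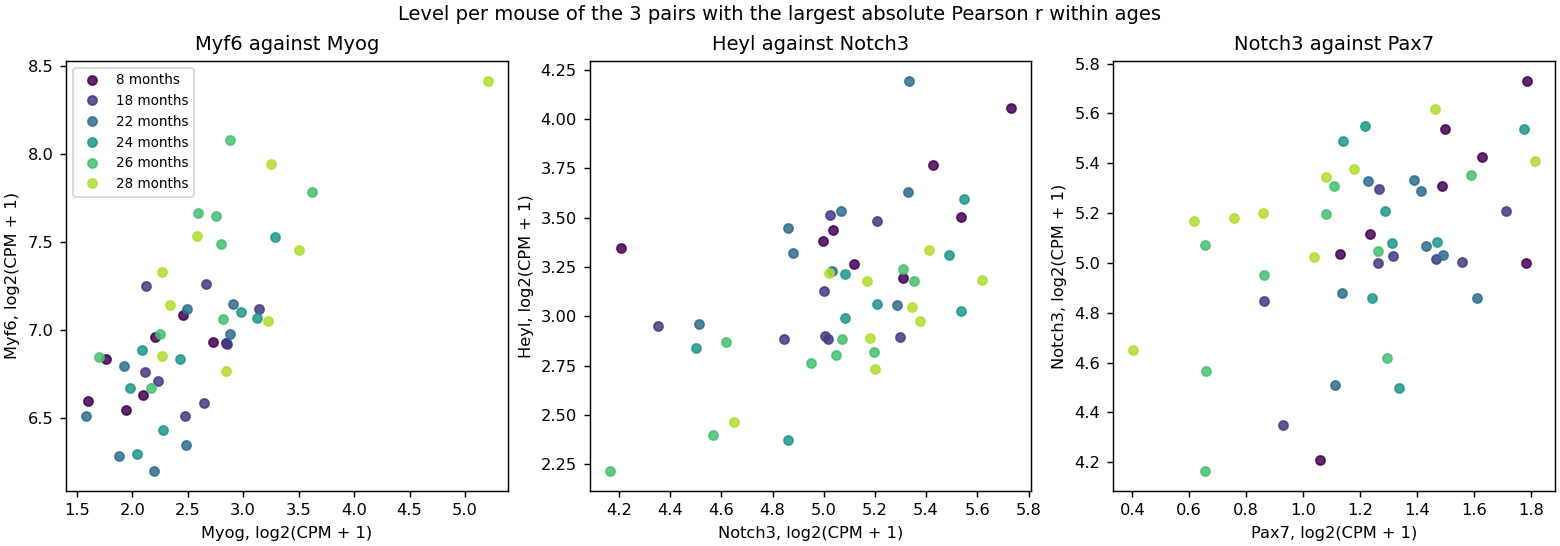
Level of 2 genes in each of the 50 mice on a log2(CPM + 1) scale on both axes, coloured by age in months, for Myog and Myf6, Notch3 and Heyl, and Pax7 and Notch3. Both genes rise together in each panel, and the mouse at the upper right of the first panel is replicate 1 of 28 months, with 35.9 CPM of Myog.

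Myf6 had negative correlations with Pax7, Notch3 and Heyl, which are named here after their values were seen. They were -0.537 with Pax7 (rho -0.515, adjusted permutation p = 0.00277 and 0.0027), -0.536 with Notch3 (rho -0.594, adjusted 0.00045 and 0.000225) and -0.525 with Heyl (rho -0.528, adjusted 0.00216 and 0.00247). Each was negative at all 6 ages. Without the 2 mice farthest from the median of Myf6 they were -0.491, -0.554 and -0.527. Mice with more of the fibre factor thus had less of these 3 transcripts than mice of their own age. Cdh15, in contrast to Pax7, was correlated with Myf6 at 0.484 (rho 0.458, adjusted permutation p = 0.0138 for both; 0.476 without the 2 farthest).

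**Figure D4:**
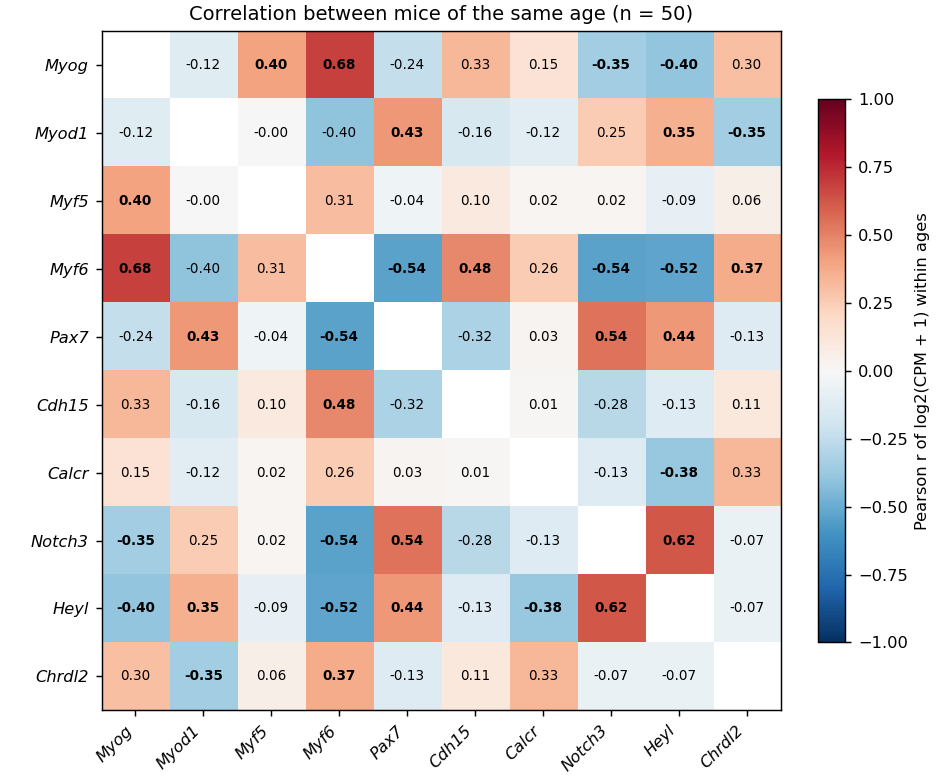
Pearson's r between the 10 genes over 50 mice after each age was centred on its mean; red is positive and blue negative, and bold values passed an adjusted p of 0.05. Myf6 is positive with Myog (0.68) and Cdh15 (0.48) and negative with Pax7, Notch3 and Heyl.

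Over all 50 mice and without centring, the genes of the table whose log2(CPM + 1) followed each member most closely were found by Pearson's r, given as a description. For Myog they were Nfe2l2 (0.753), Ppp1r10 (0.738) and Irs2 (0.733). For Myf6 they were Tsc22d3 (0.881), Nfil3 (0.873) and Arrdc3 (0.836), of which Tsc22d3 is a known target of glucocorticoids. Myod1 was followed by Plekhh3 (0.778), Zadh2 (0.764) and Parp16 (0.76). Cdh15 was followed by Dnajb12 (0.876), Srp68 (0.871) and Eef2 (0.853), the last encoding a translation elongation factor. For Pax7 they were Tnk2 (0.76), Gm5113 (0.756) and Tmem94 (0.747), and for Chrdl2, at weaker values, L1cam (0.523), P4ha2 (0.512) and Lrpprc (0.498). Notch3 was followed by Fat4 (0.847), Cacna1h (0.823) and Pdgfrb (0.815), and Heyl by Plxdc1 (0.812), S1pr3 (0.787) and Cspg4 (0.741), where Pdgfrb and Cspg4 are pericyte genes.

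Genes of the same pathways, in lists written for these roles, were then counted between 28 and 8 months beside the 39.6% of all genes. Of 23 other genes of Notch signalling 4 rose and 2 fell. Hes1, a repressor induced by Notch, went from 10.5 ± 1.46 to 6.18 ± 2.22 CPM (SD), a log2 fold change of -0.77 ± 0.20 (SE, FDR 0.00172). Mfng, a glycosyltransferase acting on Notch, fell by 0.74 on the log2 scale (FDR 0.000433). Rbpj, the DNA-binding partner of the cleaved receptor, rose by 0.49 (FDR 7.87e-06). In the same list Hey1 was at -0.045 (FDR 0.873) and Hey2 at 0.40 (FDR 0.0679). Thus Hes1 had the sign of Heyl, Hey1 and Hey2 were not called, and the shared transcription factor had the other sign.

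Of 22 further genes reported in satellite cells 5 rose and 7 fell, and many of them are also made by other cells of muscle. Among those that fell was the collagen Col5a1, at -1.44 ± 0.20 (SE, FDR 2.5e-07). Dag1, dystroglycan, the most abundant, rose by 0.31 (FDR 0.00259). In the fibroblast list 7 of 10 genes fell and none rose, with a median log2 fold change of -1.11 and the collagen Col3a1 going from 199 ± 29.6 to 40.9 ± 30.6 CPM. The summed level of that list ran from 1308 to 1815 CPM at 8 months and from 791 to 1156 CPM at 28 months, without overlap, and its part in the satellite cell list was not tested.

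Of 13 partners and inhibitors of the basic helix-loop-helix factors 1 rose and 1 fell, namely Tcf12, a dimer partner of the myogenic factors (0.33, FDR 0.000607), and Bhlhe41 (-1.21, FDR 2.39e-06). Of 20 cofactors 6 rose and 1 fell, with Ankrd1, a stress-induced ankyrin repeat protein, at 1.92 ± 0.30 (FDR 2.17e-06) and Eya4 at 0.74 ± 0.15 (FDR 6.15e-05). Mef2c, the most abundant, was at -0.13 with an FDR of 0.38. Of 14 genes of differentiation and fusion 4 rose and 4 fell, among them Mybph at 1.30 ± 0.37 (FDR 0.00282) and Cdh2 at -0.72 ± 0.19 (FDR 0.00149). The list of 12 genes of cell division had only 4 members above the filter, of which Pcna rose by 0.30 (FDR 0.00579).

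Myog is among the genes that rise when a fibre loses its nerve, and in the list of the response to denervation 12 of 20 other genes rose and 1 fell, with a median log2 fold change of 0.83. Sln, sarcolipin, went from 2.90 ± 1.69 to 55.4 ± 16.7 CPM (log2 fold change 4.25 ± 0.43, FDR 1.71e-09). Gdf5, a growth factor made by denervated muscle, rose by 3.08 ± 0.67 (FDR 0.000194) and Fbxo32, the ubiquitin ligase atrogin-1, by 1.62 ± 0.32 (FDR 5.04e-05). Gdf5 went from 0.132 to 1.20 CPM, and its lowest value at 8 months was 0, so its fold change rests on few counts. The summed level of the list ran from 757 to 1385 CPM at 8 months and from 883 to 7181 CPM at 28 months. Its highest value at 28 months was in replicate 2, which had 4.99 CPM of Myog and 184 CPM of Myf6, and its lowest in replicate 3, which had 6.19 and 108 CPM. Fbxo32 alone ran from 395 to 5439 CPM at 28 months, so the sum follows this gene more than the others. The mice at its ends therefore tell little about the other genes of the list. The part of denervation in the levels of Myog and Myf6 was not tested.

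Markers of other cells were counted in the same way because several of the 10 genes are made outside satellite cells. Of 11 mural cell genes 1 rose and 4 fell, with Cnn1 at -1.36 ± 0.29 (FDR 0.000155) and Higd1b at -0.71 ± 0.17 (FDR 0.000615), while the most abundant, Rgs5, was at -0.27 with an FDR of 0.0529. Their median log2 fold change was -0.27, and the gene that rose was Abcc9, from a mean of 333 to 450 CPM (FDR 0.00113). Their summed level, without Notch3 and Heyl, ran from 879 to 1290 CPM at 8 months and from 940 to 1165 CPM at 28 months. These ranges overlapped, but the sum includes the rise of Abcc9 and so can hide falls of the others. None of the genes was at 0, and their part in the level of Heyl was not tested. Of 9 endothelial genes 1 rose, Flt1, and 1 fell, Tek. Of 7 tenocyte genes 3 fell, among them Kera at -2.72 ± 0.35 (FDR 6.89e-08). The 9 macrophage markers, 1 of which has 2 gene identifiers, made 10 entries, of which 7 rose, Cd163 by 1.29 ± 0.22 (FDR 9.75e-06). Of 9 Schwann cell genes Ngfr rose by 1.75 ± 0.26 (FDR 8.95e-07) and S100b fell by 1.07 (FDR 0.0021). Of 8 genes of slow fibres none was called by edgeR, though their median log2 fold change was 0.55. The summed level of these slow fibre genes varied widely, from 418 to 2221 CPM at 8 months and from 840 to 3486 CPM at 28 months. Of 10 genes of fast fibres 3 rose and 2 fell, with a median log2 fold change of 0.11. Of the 8 skeletal muscle genes 2 rose, Ttn by 1.27 and Des by 0.34.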

How the data were processed

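Gastrocnemius RNA of 50 mice was read from the deposited tables. According to the methods, the authors trimmed reads with Cutadapt 1.9.1 and assigned them with kallisto 0.43.1, by strand, to protein-coding Ensembl transcripts (GRCm38). The deposited values are estimated counts, in which the authors divided a read that fitted several transcripts among them, given as whole numbers per gene. The TPM values, as deposited, were scaled by the authors to transcript length and library size. Ages came from the labels.

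The quasi-likelihood test of edgeR 4.0.16 (R 4.3.3) was run on the counts with TMM scaling, a mean per age for all 6 ages, and Benjamini-Hochberg adjustment over every gene that reached 1 CPM in 8 or more mice. Calls needed an FDR below 0.01. DESeq2 1.42.0, limma 3.58.1 on log2(TPM + 1) or log2(TPM + 0.1), other factors, no filter, a replicate block, only the 2 ages compared and leaving out each mouse were alternatives. Correlations used Python 3.11.15 and 100000 permutations. The scripts were tested on simulated data. Gene positions came from GENCODE vM21, on the same build but not the authors' release.

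The 10 genes, the companion lists and the tests were chosen with earlier results of these data known. Named from each list were the 2 genes called with the largest change and the most abundant one (1 such gene is not reported here), and the 3 most correlated genes of each member except Myf5 and Calcr, whose means were under 1 CPM. Libraries held 13607229 to 21267375 counts, and intervals on counts cover counting error only. Mice are separate animals, and no label pairs their numbers across ages.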

Additional observations from a re-analysis of the deposited data

Results flagged for a closer look

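In the 60 groups of 1 gene at 1 age, 5 held a mouse far from the rest of its age, where chance marks about 1 in 20. Myog was at 11.3 CPM in replicate 3 of 26 months, against 2.24 to 6.36 CPM in the other mice, and at 35.9 CPM in replicate 1 of 28 months, against 3.82 to 10.4 CPM. Pax7 was at 2.43 CPM in replicate 4 of 24 months, against 1.20 to 1.77 CPM. Calcr was at 0.833 CPM in replicate 1 of 22 months, against 0.0539 to 0.406 CPM. Heyl was at 17.3 CPM in replicate 5 of 22 months, against 6.78 to 11.4 CPM.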

How the results depend on the processing

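Cdh15 kept its direction and an FDR below 0.01 between 28 and 8 months under all 8 other settings (log2 fold change 0.51 to 0.61) and without any 1 of these mice (0.51 to 0.63). With each mouse left out, the count of genes called ranged from 2 to 4 for any age, from 1 to 6 for 28 against 8 months, from 1 to 3 for 26 against 8 months and from 1 to 5 for 28 against 22 months. For 26 against 8 months it was 3 without replicate 4, 5 or 7 of 26 months and 2 without replicate 2 or 6 of 26 months or replicate 1 or 3 of 28 months. DESeq2 called 3 for 26 against 8 months, and fitting only the 2 ages called 0 for 28 against 22 months; the cause was not tested. Notch3 between 28 and 8 months turned to -0.037 with upper-quartile factors. Those factors put the median log2 fold change of all genes at -0.046. With each mouse left out, fold changes ranged from 0.72 to 1.46 for Myog, 0.48 to 0.73 for Myf6, -0.60 to -0.45 for Heyl, -0.91 to -0.53 for Myod1 and Pax7, 0.15 to 0.33 for Myf5 and -0.092 to 0.103 for Notch3. Of 121 pairs of same-numbered mice 52 had a correlation above 0.1. The mean was 0.040, beside -0.0050 for mice of different numbers. No label ties the numbers to a batch, and these values cannot tell whether same-numbered mice shared one. With the replicate block 5 genes were called between 28 and 8 months, Pax7 being added at -0.76 (FDR 0.00937), and 3 for any age. On log2(TPM + 1) 11 pairs of genes were correlated within ages, and without centring 20. Genes under 1 CPM are limited by counts.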
